A study of Homo sapiens with 7 samples.

Results

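Endoplasmic reticulum (ER) chaperones were followed in Huh7 cells treated with a type I or a type III interferon. The 10 genes were taken by symbol from the platform's probe table: HSPA5, HSP90B1, SDF2L1, DNAJB9, DNAJC3, PDIA3, PDIA4, CALR, HERPUD1 and XBP1. They had 12 of the 31741 probes on the array. Through a probe listed for 1 gene only, 9 of them entered the comparisons, and all 9 lay above the level under which dim genes were left out, as did 12835 of 18336 genes in all. HSP90B1 had a single probe, which is also listed for the pseudogene HSP90B2P, so its values may come from either transcript and are given apart.

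The ER is where secreted and membrane proteins fold, and a hepatocyte exports a large amount of protein through it. HSPA5 (BiP) and HSP90B1 (GRP94) hold unfolded chains, J-domain proteins such as DNAJB9 and DNAJC3 steer HSPA5, protein disulfide isomerases form disulfide bonds, and calreticulin (CALR) binds glycoproteins. When unfolded protein accumulates, the sensors ATF6, IRE1 and PERK start the unfolded protein response. ATF6 and the spliced form of XBP1 then switch on most of these genes, in many cases through the ER stress response element (ERSE), while PERK acts through ATF4.

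Huh7 is a human hepatoma line. The cells received IFN-α at 10 IU/ml (10 U/ml in another label of the same arrays) or 1 of the IFN-λ proteins, IFN-λ1 and IFN-λ4, both at 20 ng/ml. Each lasted 6 h or 16 h, and untreated cells of 0 h were the control. Every condition was 1 array in 1 colour (Cy5), 7 in all, so no condition was repeated and the untreated cells were not matched for time in culture. The doses of IFN-α and IFN-λ are in different units and were not matched for activity, so a difference between them is a difference between these treatments. IFN-α signals through IFNAR1 and IFNAR2, and both IFN-λ through IFNLR1 and IL10RB.

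The median intensity of all probes was 494 to 633 across the arrays. Of 8 hepatocyte markers, 7 were measured, all above the dim level, and HNF4A had no probe of its own. Their summed deposited intensity, before scaling, was 1473800 to 1594350 on the IFN-λ arrays and 1521590 to 1548170 on the IFN-α arrays. Among markers of other cells, PTPRC, CD3E, COL3A1, DCN and KDR were dim. The interferon-induced genes ISG15, IFI6 and MX1 were at least 3.14 log2 units above untreated on each of the 6 treated arrays. Differences between groups were tested with limma over all 12835 genes with Benjamini-Hochberg adjustment at 0.05. There were no replicates, so in the comparisons with untreated the spread is that between times and between IFN-λ1 and IFN-λ4. IFN-α against IFN-λ had time as a block. IFN-λ4 against IFN-λ1, and 16 h against 6 h, had both time and interferon fitted. In these the spread is what the fitted terms left over. In the test of whether the time course differed by interferon type (the interaction), it is only that between IFN-λ1 and IFN-λ4 at the same time.

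Binding sites for the unfolded protein response are shown first, because they are a sequence feature that many of these genes share. RefSeq promoter windows of GRCh38.p14, 250 bases before to 50 after each start, were available for 9 of the 10 genes, PDIA3 being the other one. ERSE was searched as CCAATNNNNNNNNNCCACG and the shorter ERSE-II as ATTGGNCCACG, each on both strands. ERSE was found in 4 of the 9 genes (HSPA5, HSP90B1, CALR and XBP1), against 0.0769% of 35116 windows of all genes, and ERSE-II in 2 (SDF2L1 and HERPUD1), against 0.0541%. Together 6 of 9 held a match, against 0.131% of all windows. A gene was counted if any of its windows matched, whereas the percentages count single windows. Since ERSE is a known route to many of these genes, their matches are no independent result. The matches are printed with 20 bases on either side, 5′ to 3′ on the gene's strand, with the conserved blocks of the motif in capitals.

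HSPA5 (chr9:125241371-125241429, minus strand, ERSE from 66 to 48 bases before the start): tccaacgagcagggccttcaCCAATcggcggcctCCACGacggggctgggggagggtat
XBP1 (chr22:28800583-28800641, minus strand, ERSE from 52 to 34 bases before the start): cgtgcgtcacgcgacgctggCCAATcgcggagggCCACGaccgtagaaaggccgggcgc
HSP90B1, far match (chr12:103930196-103930254, plus strand, ERSE from 194 to 176 bases before the start): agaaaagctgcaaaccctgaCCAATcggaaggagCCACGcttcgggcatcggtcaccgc
HSP90B1, near match (chr12:103930301-103930359, plus strand, ERSE read on the other strand, from 89 to 71 bases before the start): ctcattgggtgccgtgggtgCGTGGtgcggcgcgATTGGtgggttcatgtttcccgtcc
CALR (chr19:12938364-12938422, plus strand, ERSE read on the other strand, from 225 to 207 bases before the start): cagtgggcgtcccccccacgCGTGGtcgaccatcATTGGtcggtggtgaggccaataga
SDF2L1 (chr22:21642094-21642144, plus strand, ERSE-II read on the other strand, from 188 to 178 bases before the start): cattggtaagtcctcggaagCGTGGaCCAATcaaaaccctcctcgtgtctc
HERPUD1 (chr16:56932005-56932055, plus strand, ERSE-II from 117 to 107 bases before the start): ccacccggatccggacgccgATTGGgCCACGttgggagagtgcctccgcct

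In HSPA5 and XBP1 the ERSE lay close to the start and ran with the gene, whereas in CALR it lay far upstream and on the other strand. DNAJB9, DNAJC3 and PDIA4 held neither motif in this window. The core of the interferon-stimulated response element, searched as GAAANNGAAA on both strands, was in 3.57% of all windows and in 0 of the 9. A match is a run of letters and not a measured binding site, and the search says nothing of letters outside the window.

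**Figure D1:**
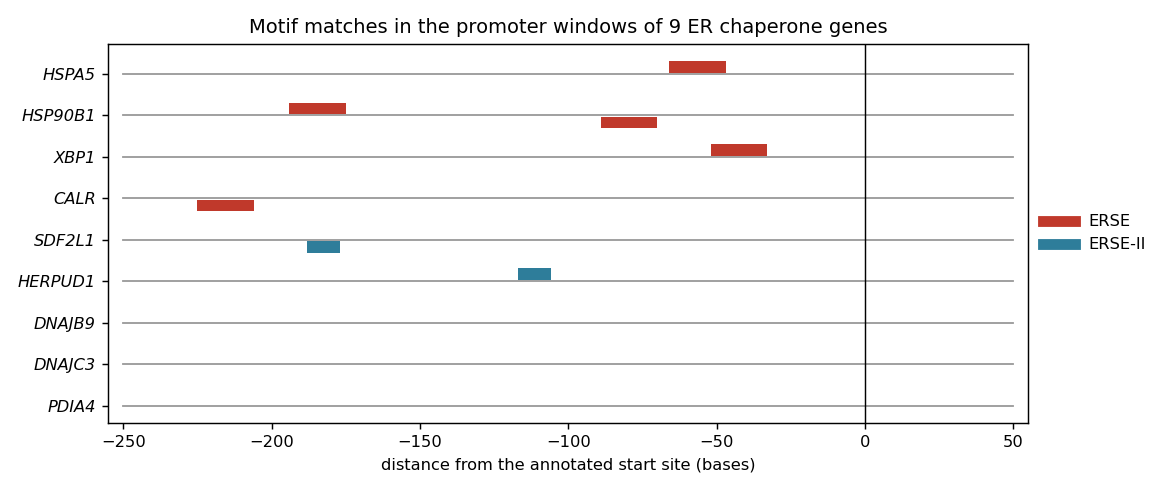
Matches to ERSE (red) and ERSE-II (blue) in the promoter windows of 9 genes, plotted as distance in bases from the annotated start site (0); bars above a line run with the gene and bars below it on the other strand. The 7 matches lie in 6 genes, and DNAJB9, DNAJC3 and PDIA4 have none.

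HSPA5, the central Hsp70 chaperone of the ER, was lowest with IFN-α. Its deposited intensity was 2217 in untreated cells, 1411 at 6 h and 652 at 16 h of IFN-α. It was 2121 at 6 h and 2641 at 16 h of IFN-λ1, and the IFN-λ4 arrays gave 2229 and 2587. Both IFN-α arrays lay below the other 5, and the IFN-λ arrays lay on either side of the untreated one. After scaling, the 6 h array of IFN-α was 1.38-fold below untreated and the 16 h array 3.65-fold below. Set against the mean of the IFN-λ arrays of its own time, the gap was 1.40-fold and 4.42-fold.

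SDF2L1, a partner that works with ER J-domain proteins on HSPA5, also had its lowest values on the IFN-α arrays. Its intensity was 40315 in untreated cells, 23756 at 6 h of IFN-α and 12917 at 16 h. The IFN-λ arrays were 35118, 40858, 38507.5 and 40027, in the order IFN-λ1 at 6 h and 16 h and IFN-λ4 at 6 h and 16 h. The IFN-α arrays thus stood apart from a narrow band of the other 5. Scaled values were 1.79-fold below untreated at 6 h and 2.91-fold below at 16 h.

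HSP90B1, the Hsp90 of the ER, was read only through the probe shared with HSP90B2P. That probe gave 25647 in untreated cells, 8489 at 6 h of IFN-α and 11049 at 16 h. It gave 18122.5 at 6 h and 29066 at 16 h of IFN-λ1, and 13736 and 27455 with IFN-λ4. Both IFN-α arrays were again the lowest, but here the 6 h arrays of all 3 interferons lay below their 16 h arrays. Scaled values were 3.05-fold below untreated at 6 h of IFN-α and 1.97-fold below at 6 h of IFN-λ4.

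Among the J-domain proteins, DNAJB9 (ERdj4), which restrains IRE1 through HSPA5, gave 7726 untreated, 6089 at 6 h and 4628 at 16 h of IFN-α, and between 7636 and 11339.6 on the IFN-λ arrays. Its IFN-α arrays lay below the other 5, and both IFN-λ arrays of 16 h lay above untreated, by 0.56 log2 units with IFN-λ1 and 0.57 with IFN-λ4. DNAJC3 (p58IPK), an HSPA5 cochaperone also known as an inhibitor of the kinases PKR and PERK, gave 10655 untreated and 10076 at 6 h of IFN-α. It gave 6179 at 16 h of IFN-α and 9602 to 12528 on the IFN-λ arrays. Only its 16 h IFN-α array stood apart, 1.65-fold below untreated. The second, dimmer probe of DNAJC3 gave 351 untreated, 237 and 272 with IFN-α at 6 h and 16 h, and 263 to 444 with IFN-λ. On that probe both IFN-α arrays lay below the IFN-λ arrays after scaling, so the probes differed at 6 h.

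PDIA4 (ERp72), a disulfide isomerase, was highest in untreated cells at 13205. It gave 7449 at 6 h and 6061 at 16 h of IFN-α, 9147 and 10971 for IFN-λ1, and 10319.5 and 9424 for IFN-λ4. Every treated array was below untreated and the IFN-α arrays were the lowest, 1.77-fold below at 6 h and 2.10-fold below at 16 h. PDIA3 (ERp57), which works with the lectin chaperones on glycoproteins, was dimmer, at 429.8 untreated and 347 and 302 with IFN-α at 6 h and 16 h. The IFN-λ1 arrays gave 621 and 487, those of IFN-λ4 404 and 437. After scaling the 6 h IFN-α array differed from untreated by 0.01 log2 units and the 16 h one was 0.62 lower. A second probe, listed for PDIA3 and its pseudogene PDIA3P, ran the other way: 368 untreated, 479 and 655 with IFN-α, and 369.5 to 463 with IFN-λ. Which transcript that probe reads cannot be told from the table.

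CALR, the soluble lectin chaperone, gave 22537 untreated, 15197 at 6 h and 13694 at 16 h of IFN-α. The IFN-λ1 arrays gave 29332 at 6 h and 18979.5 at 16 h, those of IFN-λ4 26986.5 and 26488. The IFN-α arrays were the lowest, by about the same amount at both times (0.62 and 0.60 log2 units below untreated). HERPUD1, which organises ER-associated degradation, varied least of the 10, from 26775 at 6 h of IFN-α to 36088 at 16 h of IFN-λ4, with 29296 untreated and 30288 at 16 h of IFN-α. Its IFN-α arrays lay on both sides of untreated after scaling, at -0.21 at 6 h and 0.18 at 16 h, and all 4 IFN-λ arrays were 0.16 to 0.30 above it.

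XBP1, the transcription factor of the IRE1 branch, had its own time course. It gave 23389.8 untreated, 11593 at 6 h and 23148 at 16 h of IFN-α. The IFN-λ1 arrays gave 29278 and 34549, those of IFN-λ4 21334 and 36620.5. The 6 h IFN-α array was 2.09-fold below untreated after scaling and the 16 h one 1.08-fold above it. With each interferon the 16 h array was higher than the 6 h one, by 1.18 log2 units with IFN-α, 0.30 with IFN-λ1 and 0.88 with IFN-λ4. The probe's place in the transcript is not given in the sources used here, so spliced and unspliced XBP1 were not told apart.

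**Figure D2:**
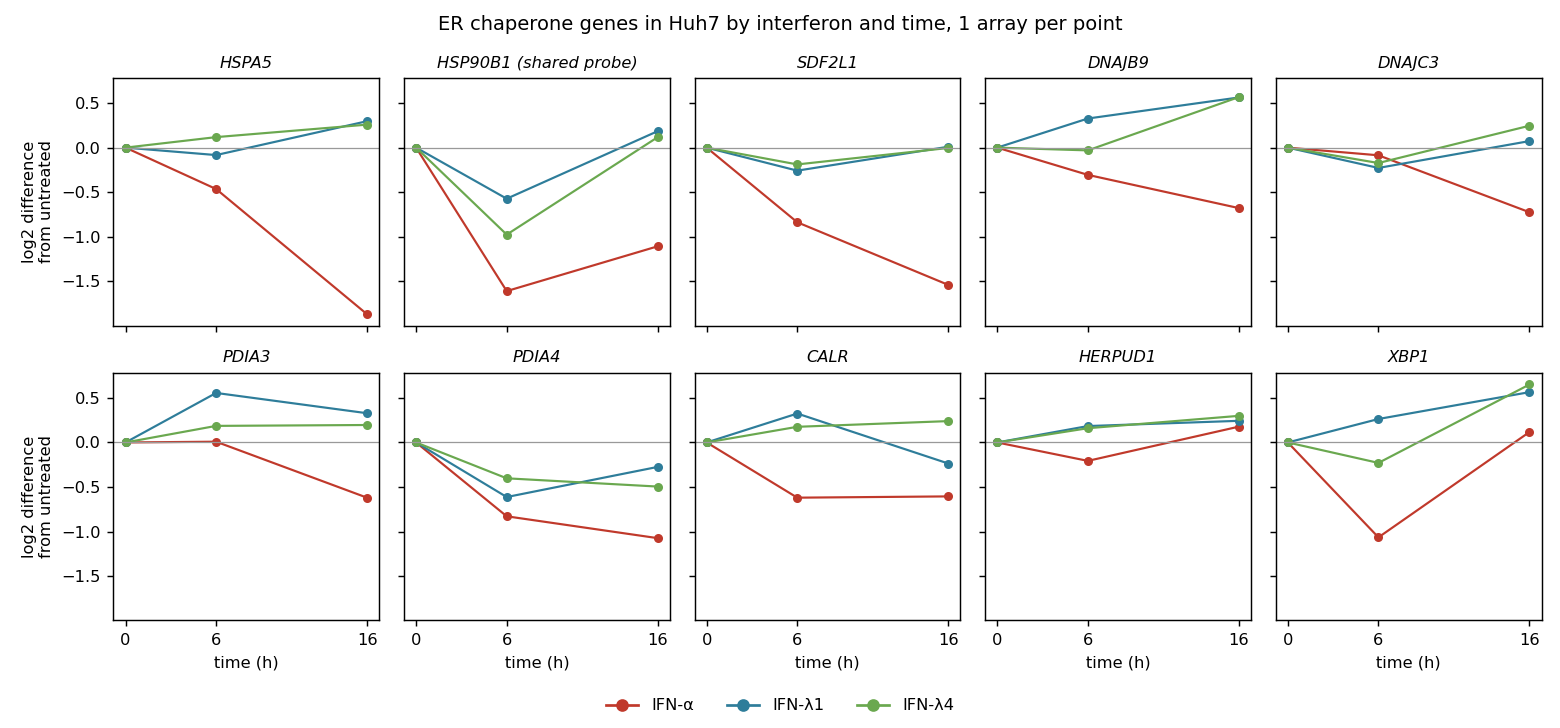
Scaled log2 difference from the single untreated array (0 h) at 6 h and 16 h for the 10 genes, 1 array per point and no error bars because no condition was repeated; lines join arrays of 1 interferon. IFN-α (red) lies below both IFN-λ at 16 h in all 10 panels, by the widest gap in HSPA5, where it reaches -1.87, while XBP1 with IFN-α returns to 0.12. The HSP90B1 panel shows the probe shared with HSP90B2P. The probe shared by PDIA3 and PDIA3P is not drawn and ran the other way. At 16 h it lay at 0.80 with IFN-α, 0.49 with IFN-λ1 and 0.40 with IFN-λ4.

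Read at a 2-fold threshold on single arrays, which carry no test, 1 of the 9 genes (XBP1) was lower at 6 h of IFN-α (none with median centring), where 2.82% of all genes were, and 3 (HSPA5, SDF2L1 and PDIA4) were lower at 16 h, where 3.45% were. None was 2-fold higher with IFN-α, where 3.9% of genes were at 6 h and 5.75% at 16 h. None passed 2-fold either way with IFN-λ1 at 6 h (1.73% of genes) or 16 h (1.19%), or with IFN-λ4 at 6 h (3.27%) or 16 h (1.19%). The median of the 9 was -0.46 at 6 h and -0.68 at 16 h of IFN-α, against 0.01 and -0.08 over all genes. It was 0.18 and 0.24 on the IFN-λ1 arrays and -0.03 and 0.25 on those of IFN-λ4. In 6 of the 9 both IFN-α arrays lay below all 4 IFN-λ arrays (all but DNAJC3, HERPUD1 and XBP1), and 12.3% of all genes had that order. In 5, the same ones without PDIA3, both lay below the untreated array too, as in 11.2% of all genes.

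The comparison of IFN-α with both IFN-λ used 2 arrays against 4, with time as a block. All 9 estimates were below 0, from -1.31 to -0.24, with a median of -0.74, against a median of -0.03 over all genes and 6932 of 12835 below 0. SDF2L1 fell by 1.08 ± 0.21 log2 units (estimate ± SE, limma adjusted p = 0.044, 2.11-fold), the only one of the 9 to pass, while 0.631% of all genes were called lower and 2.13% in either direction. HSPA5 had the lowest estimate, -1.31 ± 0.33 (95% interval -2.08 to -0.54), and a limma adjusted p of 0.0856. CALR was at -0.74 ± 0.17 (limma adjusted p = 0.0735), XBP1 at -0.79 ± 0.20 (limma adjusted p = 0.0816) and DNAJB9 at -0.85 ± 0.21 (limma adjusted p = 0.0821). PDIA3 at -0.62, PDIA4 at -0.50, DNAJC3 at -0.38 and HERPUD1 at -0.24 had limma adjusted p between 0.154 and 0.399. The intervals of DNAJC3 and HERPUD1 held 0 and those of the other 7 did not. An interval without 0 equals an unadjusted p under 0.05, which 2562 of all 12835 genes (20.0%) had in either direction.

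The call on SDF2L1 was close to the threshold. Its limma adjusted p was 0.0991 with each array centred on its median and 0.0514 with the deposited scaling kept. Left out 1 at a time, IFN-λ1 at 6 h, IFN-λ1 at 16 h and IFN-λ4 at 6 h each ended it, with limma adjusted p of 0.116, 0.071 and 0.0932. Without the IFN-α array of 16 h its estimate was -0.61 (limma adjusted p = 0.0472), and without that of 6 h it was -1.54 (limma adjusted p = 0.00149). Without the 16 h IFN-α array HSPA5 was at -0.48 and DNAJC3 at 0.11. In bulk RNA, fewer cells with a transcript and less of it per cell cannot be told apart. The labels name Huh7 as the only cells, so markers of other cell types were read in 1 line. Their lists also varied between the arrays. Of 5 leukocyte markers 2 (MS4A1 and CD14) were above the dim level. The summed deposited intensity of the list was 8939 at 16 h of IFN-α, 4188 at 6 h, 4637 to 7633 with IFN-λ and 3821 untreated. The fibroblast and stellate list (2 of 4 above dim) summed to 2753 to 2911 with IFN-α, 2895 to 4762 with IFN-λ and 4013 untreated, and the endothelial list (3 of 4) to 3080.0 to 3370 with IFN-α, 3834 to 4497 with IFN-λ and 4155 untreated. What these sums reflect in a single cell line was not tested.

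With the shared probes entered as features of their own, an alternative chosen after seeing the data, the HSP90B1 and HSP90B2P probe fell by 1.05 ± 0.17 log2 units with IFN-α against IFN-λ (limma adjusted p = 0.0282, 2.06-fold). The PDIA3 and PDIA3P probe was at 0.39 ± 0.17, with a limma adjusted p of 0.249.

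**Figure D3:**
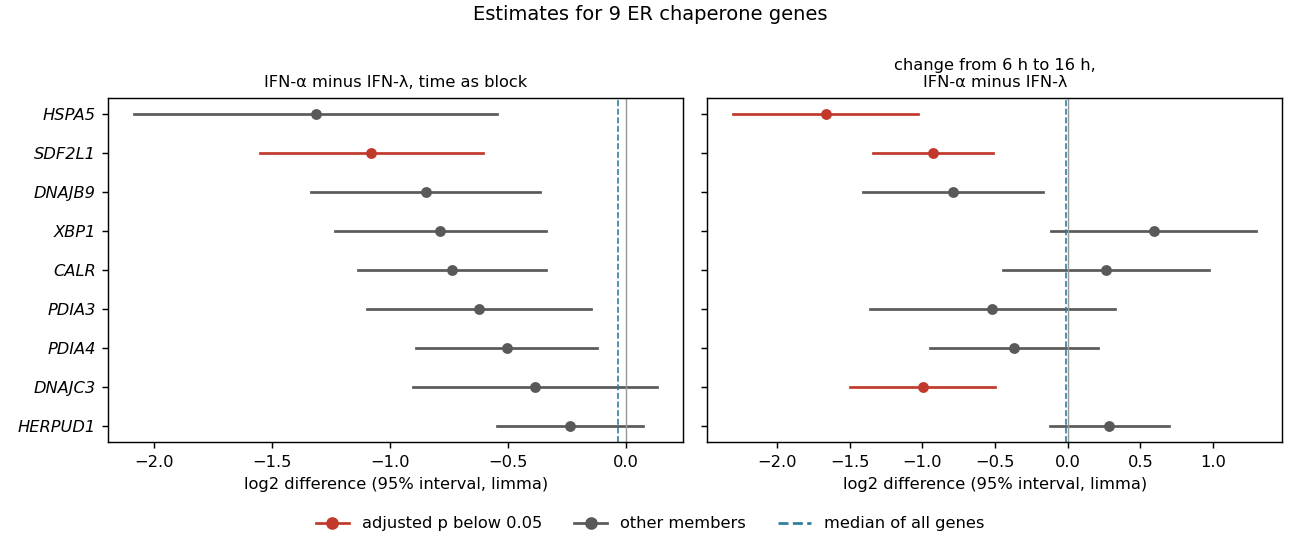
limma estimates with 95% intervals for the 9 genes, in log2 units: IFN-α minus IFN-λ with time as a block (left) and the 6 h to 16 h change with IFN-α minus that with IFN-λ (right). Red marks an adjusted p below 0.05 over all 12835 genes, which is SDF2L1 alone on the left and HSPA5, DNAJC3 and SDF2L1 on the right; the dashed line is the median of all genes.

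Whether the time course differed between the types of interferon was tested as an interaction. HSPA5 changed by -1.40 from 6 h to 16 h of IFN-α but by 0.38 with IFN-λ1 and 0.14 with IFN-λ4, a difference of -1.66 ± 0.27 (limma adjusted p = 0.0311). SDF2L1 changed by -0.70 against 0.27 and 0.18, a difference of -0.93 ± 0.17 (limma adjusted p = 0.0415), and DNAJC3 by -0.64 against 0.30 and 0.42, a difference of -0.998 ± 0.21 (limma adjusted p = 0.0483). These 3 of 9 stood beside 3.51% of all genes called lower and 5.59% called in either direction. HSPA5 had the lowest of the 9 estimates. DNAJB9, the remaining J-domain protein, was at -0.79 and did not pass (limma adjusted p = 0.115). Neither PDIA3 at -0.52 nor PDIA4 at -0.37 passed, with limma adjusted p of 0.391 and 0.376.

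CALR (0.26), HERPUD1 (0.29) and XBP1 (0.59) had estimates above 0, none of which passed, with limma adjusted p from 0.253 to 0.623. For CALR and HERPUD1 the sign turned with median centring. The interaction sets 1 IFN-α array at each time against 2 of IFN-λ. Its residual spread therefore comes from the IFN-λ pairs alone and holds no spread of the IFN-α arrays. Without IFN-λ1 at 16 h or without IFN-λ4 at 16 h none of the 3 calls was kept. Over all alternatives the limma adjusted p ranged from 0.0154 to 0.0728 for HSPA5, 0.022 to 0.115 for SDF2L1 and 0.0306 to 0.157 for DNAJC3.

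Against the untreated array, none of the 9 genes was called with IFN-α, where limma called 0.6% of all genes. At an unadjusted p under 0.05, 4 of the 9 were below untreated, and 1403 of all genes (10.9%) passed that threshold in either direction. The estimates ran from -1.19 for SDF2L1 (limma adjusted p = 0.154) and -1.17 for HSPA5 (limma adjusted p = 0.415) to -0.01 for HERPUD1. PDIA4 was at -0.95 ± 0.26 (limma adjusted p = 0.195). Without the IFN-α array of 6 h, 2 of the 9 passed, HSPA5 at -1.87 (limma adjusted p = 0.0145) and SDF2L1 at -1.54 (limma adjusted p = 0.0113), and that fit called 405 genes against 77 with all arrays. With IFN-λ none was called either, nor did any reach an unadjusted p under 0.05, where limma called 0.179% of genes, and the estimates lay between -0.45 for PDIA4 and 0.36 for DNAJB9. Both comparisons, and those of the single arrays, share the 1 untreated array.

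IFN-λ4 and IFN-λ1 could be compared at the same dose and times. limma called 0 of the 9 genes and 0% of all genes, with 304 genes and 0 of the 9 at an unadjusted p under 0.05. The estimates for IFN-λ4 minus IFN-λ1 lay between -0.25 for PDIA3 and 0.16 for CALR. The 95% interval was -0.94 to 1.10 for HSPA5 and -0.61 to 0.66 for SDF2L1, so differences of those sizes lay within the intervals. At 6 h the widest gap among the 9 was that of XBP1, 0.49 log2 units, and at 16 h that of CALR, 0.48, where 95% of all genes lay within 0.72 and 0.48.

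For 16 h against 6 h with interferon as a block, limma again called 0 of the 9 genes and 0% of all genes, with 1941 genes and 1 of the 9 at an unadjusted p under 0.05. That one was XBP1, at 0.79 ± 0.20 (limma adjusted p = 0.202), higher at 16 h with 3 of 3 interferons. Without an IFN-α array its estimate came from IFN-λ alone and was 0.59, with a limma adjusted p of 0.0183 without the 6 h array and 0.0163 without the 16 h one, in fits that called 2618 and 2689 genes. Without an IFN-λ array its limma adjusted p lay between 0.497 and 0.551.

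The rest of the secretory pathway was read from 4 lists. Of 19 other ER folding enzymes and cochaperones 18 were measured, and 16 lay below 0 in IFN-α against IFN-λ. Their median was -0.50, against -0.03 over all genes. Of the list 2 were called lower and none higher, beside 0.631% of all genes called lower and 2.13% in either direction. The called genes were PPIB (cyclophilin B, a prolyl isomerase), which fell by 0.74 ± 0.12 (limma adjusted p = 0.0278), and SIL1, the nucleotide exchange factor of HSPA5, which fell by 0.89 ± 0.18 (limma adjusted p = 0.0479). MANF, a secreted protein that binds HSPA5, had the lowest estimate, -1.08 ± 0.31 (limma adjusted p = 0.108). MANF read 7077 untreated, 4626 at 6 h and 2130.2 at 16 h of IFN-α, and 5386 to 7426 with IFN-λ. Its IFN-α arrays lay below the other 5. In the interaction, which holds 1 IFN-α array at each time, 13 of the 18 lay below 0, as did 6540 of all 12835 genes. MANF was lowest at -1.50. UGGT1, the glucosyltransferase that returns misfolded glycoproteins to the lectin chaperones, was at -1.10. At the other end of IFN-α against IFN-λ, SDF2, a homologue of SDF2L1, was at 0.09, and CNPY2 at 0.18, with limma adjusted p of 0.785 and 0.638.

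Of 20 genes of ER-associated degradation and translocation 18 were measured. In IFN-α against IFN-λ none of them was called and the median was -0.15. The lowest were the ubiquitin-conjugating enzyme UBE2J1 at -0.81 and the ubiquitin ligase SYVN1 (HRD1) at -0.67, with limma adjusted p of 0.173 and 0.131. The highest were UFD1, a partner of the VCP segregase, at 0.04 and HERPUD2, a homologue of HERPUD1, at 0.26. In the interaction 12 of the 18 lay below 0 and 6 above. UBE2J1 was lowest at -1.13, with UFD1 at -1.05 and SEC61B, a subunit of the translocon, at -0.88. Calls in the interaction are not given for the lists, since it holds 1 IFN-α array at each time. The interaction calls among the chaperones therefore do not set them apart from these lists.

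The sensors and the proteases that activate ATF6 gave 5 measured of 6, none called and a median of 0.06. ATF6 was at -0.05, ERN1 (IRE1) at 0.06, the site-1 protease MBTPS1 at -0.02, the site-2 protease MBTPS2 at 0.24 and EIF2AK3 (PERK) at 0.54, and their limma adjusted p ran from 0.112 to 0.958. These sensors are switched on as proteins, which the arrays do not read.

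The PERK and ATF4 branch moved in both directions. All 9 genes were measured, with a median of -0.60. With IFN-α against IFN-λ 3 of them were called lower and 1 higher, beside 81 and 193 of all 12835 genes. CHAC1, a glutathione-degrading enzyme induced by ATF4, fell by 2.12 ± 0.24 (limma adjusted p = 0.0102). It read 165 and 154 on the IFN-α arrays, 469.7 untreated and 515 to 982 with IFN-λ. ASNS, asparagine synthetase, fell by 1.47 ± 0.18 (limma adjusted p = 0.0157). It read 14403 and 7611 with IFN-α, 18718 untreated and 25296 to 38532 with IFN-λ, so here the IFN-λ arrays lay above untreated as well. DDIT4, an inhibitor of mTORC1, was lower with IFN-α than with IFN-λ by 1.19 ± 0.18 (limma adjusted p = 0.0225). It read 248 and 209 with IFN-α, 396 untreated and 363 to 670 with IFN-λ. At 6 h both IFN-λ arrays lay above untreated, at 633 and 670. PPP1R15A (GADD34), which directs the dephosphorylation of eIF2α, rose by 1.50 ± 0.30 (limma adjusted p = 0.049). It read 3350.3 at 6 h and 10721 at 16 h of IFN-α, 3104 untreated and 1884 to 2608 with IFN-λ. In the interaction 5 of the 9 lay below 0 and 4 above, with PPP1R15A highest at 1.42. ATF3 was at 0.96 ± 0.30 and did not pass (limma adjusted p = 0.132).

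**Figure D4:**
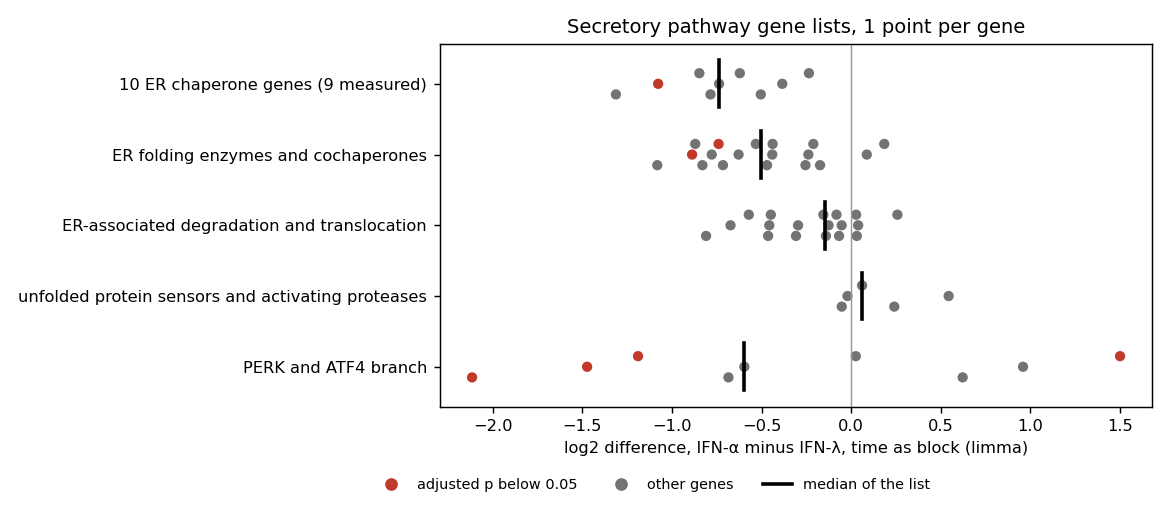
limma estimates of IFN-α minus IFN-λ in log2 units, 1 point per measured gene, for the ER chaperone genes and 4 lists; red points had an adjusted p below 0.05 and the black bar is each list's median. The chaperones and the folding enzymes lie mostly below 0 (medians -0.74 and -0.50), the sensors around 0, and the PERK and ATF4 branch spreads from -2.12 to 1.50.

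Within the set, the likeness of each gene to the mean of the other 8 over the 7 arrays was highest for SDF2L1 (Pearson r = 0.95) and DNAJB9 (0.94), then HSPA5 (0.88), and lowest for XBP1 (0.45) and HERPUD1 (0.44). The points share the arrays and the split between IFN-α and the rest, so these r describe the arrays and carry no p. The mean profile of the 9, relative to untreated, was -0.49 and -0.76 at 6 h and 16 h of IFN-α, 0.05 and 0.17 for IFN-λ1, and -0.04 and 0.22 for IFN-λ4. Among the other 12826 genes, 200 (1.56%) had r above 0.9 with it. The 5 most alike over the 7 arrays were DKK1, a secreted Wnt antagonist (r = 0.998), DIDO1 (0.998), ARG1, the arginase of the urea cycle (0.993), IDH1, a cytosolic isocitrate dehydrogenase (0.991), and RGS2, a regulator of G protein signalling (0.99). DKK1 was at -2.39 in IFN-α against IFN-λ. A low estimate follows from its choice by likeness to this profile on the same arrays, so no p is given.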

How the data were processed

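Total RNA of 7 Huh7 cultures was amplified, labelled with Cy5 and hybridised, per the labels' protocols. The authors deposited 1 intensity per probe and array; no source used here states their scaling or scanner. Values of 1 or less were set to 1, turned to log2 and quantile normalized, because array medians differed by 0.36 log2 units. The brightest probe of 1 symbol stood for a gene, and genes with a mean under the 30th percentile were left out. limma 3.58.1 in R 4.3.3 fitted 6 comparisons with a variance trend (2 to 4 residual degrees of freedom). Python 3.11.15, numpy 2.4.6, pandas 2.3.3 and matplotlib 3.10.9 served for the rest. The fits were also run on simulated data with independent noise and known IFN-α changes. Those data held no time effect and no difference between IFN-λ1 and IFN-λ4, and the interaction was not checked in them. Levels were not compared between probes. The number of arrays limits precision. Gene members, lists and tests were chosen with earlier results of these data known. Named were all members, the 2 lowest and 2 highest genes of each list by IFN-α against IFN-λ, the 5 genes most like the mean profile, and ISG15, IFI6 and MX1; other list genes were named after their values were seen. Alternatives changed the scaling, the filter, the probe rule, the trend, the block or the threshold, or left out an array.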

Additional observations from a re-analysis of the deposited data

Results flagged for a closer look

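The change from 6 h to 16 h differed between IFN-α and IFN-λ in 3 genes by the interaction test of limma: HSPA5 by -1.66, SDF2L1 by -0.93 and DNAJC3 by -0.998 log2 units. In each of them the 16 h IFN-α array was below the 6 h one, and the 16 h array was above the 6 h one with both IFN-λ. The interaction holds 1 IFN-α array at each time, and its residual spread comes from the IFN-λ pairs alone. Of all genes tested, 717 were called in this comparison.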

How the results depend on the processing

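No paired analysis was possible because each condition was 1 array and no group had numbered replicates; time and interferon served as blocks in the comparisons that hold both. All 9 estimates of IFN-α against IFN-λ stayed below 0 under every scaling, filter and probe rule (8 where only 8 were measured, with the 50th percentile as the filter), while the median of all genes moved between -0.09 and -0.02. DNAJC3 turned to 0.11 without IFN-α at 16 h (-0.88 without IFN-α at 6 h).

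In IFN-α against IFN-λ, 0 of the 9 genes passed with median centring, with deposited scaling, with the 50th percentile filter and with no variance trend, and 0 to 5 when an array was left out. Genes called numbered 154 with deposited scaling, 94 with the 50th percentile filter, 423 with the mean over a gene's probes, 159 with no block, and 14 (without IFN-λ1 at 6 h) to 1901 (without IFN-α at 6 h) when an array was left out. The median of the 9 was -0.88 to -0.45 when an array was left out.

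In the interaction 1 of 9 passed without the dim filter and with no variance trend, and 0 to 4 when an array was left out. Genes called numbered 363 without the dim filter, 434 with the mean over probes, 207 with no variance trend, and 208 to 2118 when an array was left out. With median centring CALR turned to -0.18 and HERPUD1 to -0.19. It could not be fitted without an IFN-α array.

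Against untreated, genes called with IFN-α numbered 120 with median centring, 50 with deposited scaling, 46 with the 50th percentile filter and 35 to 405 when an array was left out, with 0 to 2 of the 9 genes passing. HERPUD1 turned to 0.083 with median centring and ran from -0.21 to 0.18 when an array was left out, PDIA3 from -0.62 to 0.0085 and XBP1 from -1.06 to 0.12. With IFN-λ the genes called ran from 16 to 37. For IFN-λ4 against IFN-λ1, 1 gene was called without the dim filter and 1 with the mean over probes, and 0 to 6 when an array was left out. For 16 h against 6 h 0 to 2689 genes and 0 to 2 of the 9 passed when an array was left out.

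At 6 h of IFN-α, 0 of the 9 genes were 2-fold lower with median centring. At a 1.5-fold threshold 4 were lower at 6 h and 7 at 16 h of IFN-α, 1 was lower at 6 h of IFN-λ1 and 1 was higher at 16 h of IFN-λ4, where 2647, 3360, 1302 and 666 of 12835 genes passed it in either direction. The cause of these shifts was not tested. Where an arm is left with 1 array, it is assumed to vary like the others. With no repeated condition, array error was not measured.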

Other observations

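Of genes outside the chaperone set, 38 held ERSE or ERSE-II in the promoter window, a list drawn up after seeing the data, and 24 were measured. In IFN-α against IFN-λ, 19 of the 24 lay below 0, none was called lower and 1 was called higher, with a median of -0.20 against -0.03 over all genes. The lowest were FICD, the enzyme that AMPylates HSPA5, at -0.85 ± 0.19 (limma adjusted p = 0.0639), ERO1B, an oxidase of disulfide isomerases, at -0.83 ± 0.26 (limma adjusted p = 0.136), and HYOU1 (GRP170), an ER chaperone, at -0.78 ± 0.20 (limma adjusted p = 0.0867). The one called higher was SYNPO, an actin-binding protein, at 0.92 ± 0.17 (limma adjusted p = 0.0411). Some of the 24 are also among the folding enzymes described above.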
